A study of Bos taurus with 20 samples.

Results

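Regulatory T cell and checkpoint genes are a group of 10 genes of maternal immune tolerance among the 37063 genes counted in the maternal blood. The members were named by symbol as FOXP3, CTLA4, IL2RA, IL10, TGFB1, PDCD1, CD274, LAG3, HAVCR2 and ICOS, and all 10 were found by their cattle gene identifiers. Whole blood came from 20 embryo recipients at day 63 of gestation, which the study describes as Angus in one place and as lactating dairy cows in another, each carrying a female calf that developed from an in vitro produced embryo of a beef oocyte and sex-sorted semen. All cows formed one group, with no non-pregnant control, and calf birth weight (BW) was the only variable on which they differed in the labels. The study gives a range of ages for the recipients and considered dam parity when it examined assisted calving. Neither age nor parity was available for each cow here, so neither was taken into account. The mean BW was 45.0 ± 10.1 kg (SD, n = 20), from 30 to 72.5 kg, and the next heaviest calf weighed 56 kg.

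Regulatory T cells are CD4 T cells that express the transcription factor FOXP3 and restrain other immune cells through surface receptors, capture of interleukin 2 and release of inhibitory cytokines. Checkpoint receptors such as PD-1 (PDCD1), CTLA-4, LAG-3 and TIM-3 (HAVCR2) lower the activity of the T cells that carry them, and ligands such as PD-L1 (CD274) on other cells engage them. Both systems are known for limiting the maternal response to paternal antigens of the fetus.

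Libraries held between 24632077 and 39892111 counted reads, with a median of 33412740, and every pair of libraries differed by more than counting noise. Levels are given as CPM, counts scaled to a common library size with TMM normalization. T cell markers were present in every library, with a summed level of 1330 to 2058 CPM over 12 of 12 genes. Of the 9 monocyte markers, 2 (FCGR1A and CX3CR1) were at 0 in every cow. The other 7 monocyte markers were detected, and why these 2 were at 0 was not tested. In whole blood, fewer cells of a type and less RNA per cell cannot be told apart. All 10 members reached 10 counts in 20 of 20 cows. Members are compared between cows and not with each other, because no transcript lengths were used.

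**Figure D1:**
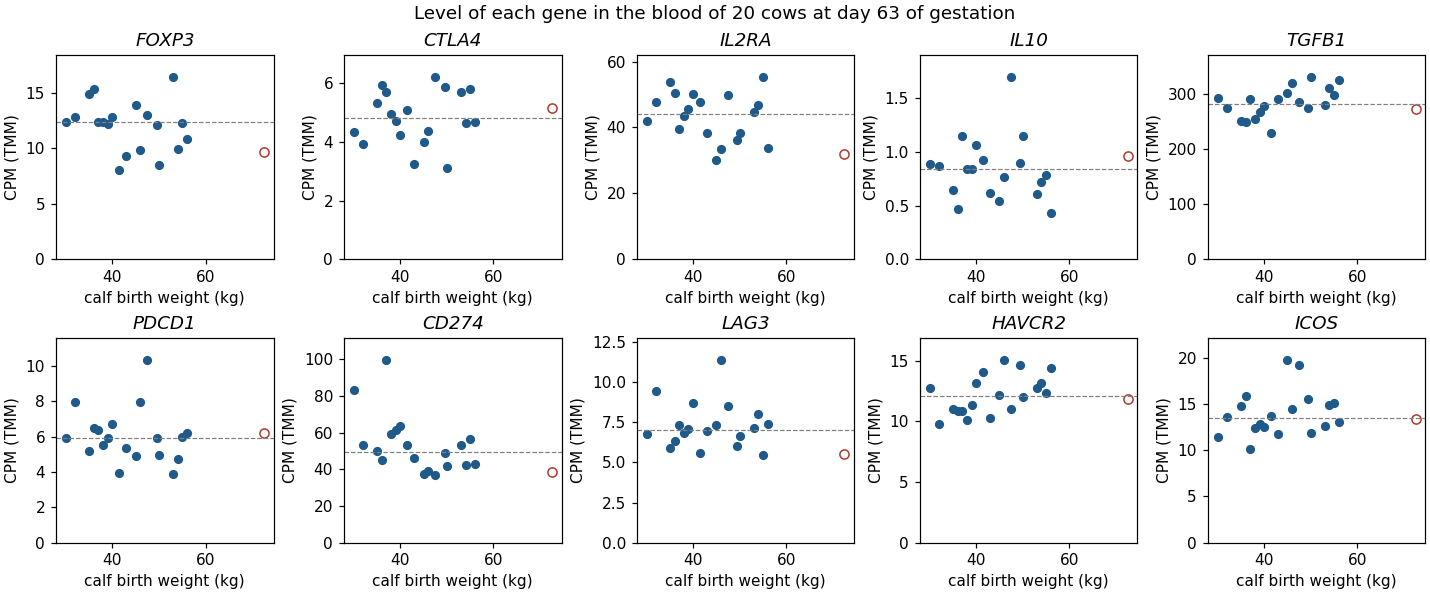
Level of each of the 10 genes (CPM after TMM, axis from 0) against calf birth weight (kg), 1 point per cow, 20 cows. The open red circle is the recipient of the 72.5 kg calf, and the dashed line is the median over the cows. CD274 reached 99.5 CPM in the recipient of the 37 kg calf and 83.3 CPM in that of the 30 kg calf, and no other cow exceeded 63.5 CPM.

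The relation of each member to calf BW was tested as a slope in the 19 cows other than the one with the 72.5 kg calf. With edgeR's quasi-likelihood test, 0 of the 10 members had a false discovery rate (FDR, over all genes tested) below 0.05, as had 0% of the 16206 genes tested. The study used DESeq2 on these 19 cows and reported 189 genes at that FDR, and DESeq2 also gave 189 here. At an unadjusted p below 0.05 there were 3 of the 10 members, namely CD274, TGFB1 and HAVCR2, against a background of 13.6% of all genes. TGFB1 and HAVCR2 had a higher level with heavier calves (2 of 10, background 6.66%) and CD274 a lower one (1 of 10, background 6.99%). Slopes were positive in 4 members and negative in 6, and the median slope was -0.0041 log2 per kg, beside -0.00072 over all genes tested. With 10 members, the counts at an unadjusted p are read as a description and not as a difference from the background.

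The smallest p among the members was that of CD274, the gene of PD-L1, the ligand that engages PD-1 on activated T cells. Its level was 36.9 CPM in the lowest cow, 49.2 at the median and 99.5 in the highest. The 5 highest cows were those of calves of 37, 30, 40, 39 and 38 kg, and the 5 lowest those of calves of 47.4, 45, 72.5, 46 and 50 kg. The slope was -0.026 log2 per kg (SE 0.0092, unadjusted p = 0.00970, edgeR FDR = 0.222), which amounts to -16.7% per 10 kg of BW, with a 95% interval of -27.1% to -4.84%. Its coefficient of variation over cows was 29.8%, higher than in 96.5% of the 2438 genes of like mean level, whose median was 8.92%.

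Over all 20 cows CD274 correlated with BW at a Pearson r of -0.54 (permutation p = 0.0146, FDR over all genes = 0.289) and a Spearman rho of -0.52 (permutation p = 0.0217). The r was -0.41 without the 2 cows farthest from the median BW. Without the 2 cows in which CD274 was highest, a choice made after their values were seen, r was -0.45 (permutation p = 0.0604). Leaving out 1 cow at a time kept an unadjusted p below 0.05 for the CD274 slope in 19 of 19 fits. The highest p was 0.0489, without the recipient of the 30 kg calf.

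Interferon-stimulated genes moved with CD274. Their score, the mean over 38 of 44 listed genes of the standardized log2 level, was 2.94 in the recipient of the 30 kg calf and at most 0.68 in the others, that second value being the recipient of the 37 kg calf. Their summed level ran from 4779 to 12384 CPM over the cows, and of the listed genes IFIT2 and IFIT3 were at 0 in every cow. CD274, which is not on that list, correlated with the score at r = 0.66 (permutation p = 0.00395, rho = 0.62, p = 0.00445), and at r = 0.55 (permutation p = 0.0170) without the 2 cows whose scores were farthest from the median. The score itself correlated with BW at r = -0.56 (permutation p = 0.0219), and at r = -0.33 (permutation p = 0.185) without those 2 cows. They were the recipients of the lightest calf (30 kg) and the heaviest (72.5 kg), so leaving them out also narrowed the BW range. In the fit of 19 cows, 37 of the 38 tested genes of the list had a negative slope. Of these, 23 had an unadjusted p below 0.05 (60.5% of the list, beside 6.99% of all genes with a negative slope at that p). With the interferon score as a covariate, the CD274 slope was -0.013 log2 per kg (unadjusted p = 0.212). It was -0.026 with the T cell score (unadjusted p = 0.0106), -0.022 with the monocyte score (p = 0.0297) and -0.027 with the neutrophil score (p = 0.0102). The part of the interferon-stimulated genes in the CD274 result was otherwise not tested.

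PDCD1LG2, the gene of PD-L2, the other ligand of PD-1, was lowest at 2.73 CPM, had a median of 3.82 and reached 22.3 CPM in the recipient of the 37 kg calf, where CD274 was also highest. The next cow had 7.74 CPM. PDCD1LG2 had a slope of -0.060 log2 per kg (SE 0.020, unadjusted p = 0.00724, edgeR FDR = 0.213), and -0.035 without the recipient of the 37 kg calf. Levels of both ligands correlated at r = 0.79 over the 20 cows (permutation p = 0.00012, FDR over all genes = 0.0845, rho = 0.69), and at r = 0.53 without the 2 cows farthest from the median CD274 level. With the interferon score as a covariate the PDCD1LG2 slope was -0.042 (unadjusted p = 0.0890). PDCD1 itself had r = -0.09 with CD274 (permutation p = 0.703) and r = -0.05 with PDCD1LG2 (p = 0.809).

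TGFB1 encodes transforming growth factor beta 1, a cytokine that promotes FOXP3 expression and restrains effector T cells. Its levels spanned 230 CPM in the lowest cow, 283 at the median and 331 in the highest. The coefficient of variation was 9.31%, higher than in 60.7% of the 814 genes of like mean level, whose median was 8.03%. The lowest cow carried a 41.5 kg calf and the highest a 50 kg calf. TGFB1 had a slope of 0.0087 log2 per kg (SE 0.0033, unadjusted p = 0.0155, edgeR FDR = 0.252), or 6.23% per 10 kg, with a 95% interval of 1.28% to 11.4%. The unadjusted p stayed below 0.05 in 19 of 19 fits with 1 cow left out, and was 0.109 with all 20 cows (slope 0.0048). Its correlation with BW over 20 cows was r = 0.35 (permutation p = 0.127, FDR over all genes = 0.496) and rho = 0.46 (permutation p = 0.0432), and r was 0.63 without the 2 cows farthest from the median BW. TGFB1 shares its locus with HNRNPUL1 and CCDC97 in the gene table, and reads of overlapping genes could be split wrongly if strand was not used in counting.

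HAVCR2 encodes TIM-3, an inhibitory receptor of T cells that monocytes and natural killer cells also carry. It had 9.78 CPM in the lowest cow, 12.1 at the median and 15.05 in the highest. The lowest cow carried a 32 kg calf and the highest a 46 kg calf. The slope was 0.012 log2 per kg (SE 0.0050, unadjusted p = 0.0299, edgeR FDR = 0.303), or 8.42% per 10 kg, with a 95% interval of 0.870% to 16.5%. The unadjusted p exceeded 0.05 in 2 of 19 fits with 1 cow left out, those without the recipient of the 32 kg calf (p = 0.0851) or of the 56 kg calf, and was 0.107 with all 20 cows (slope 0.0069). Over 20 cows HAVCR2 correlated with BW at r = 0.38 (permutation p = 0.0977, FDR over all genes = 0.456) and rho = 0.46 (permutation p = 0.0416), and r was 0.62 without the 2 cows farthest from the median BW.

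HAVCR2 was also lower where monocyte markers were higher. It correlated with the monocyte score (7 of 9 listed genes, summed level 622 to 1351 CPM) at r = -0.64 (permutation p = 0.00134) and rho = -0.55 (p = 0.0129). Without the recipients of the 46 and 56 kg calves, whose monocyte scores were the lowest at -1.76 and -2.37, r was -0.45 (permutation p = 0.0589). With the monocyte score as a covariate, the HAVCR2 slope was 0.0079 log2 per kg (unadjusted p = 0.105). It was 0.012 with the T cell score (unadjusted p = 0.0330), 0.012 with the neutrophil score (p = 0.0204) and 0.017 with the interferon score (p = 0.00917). The monocyte score was not itself past the threshold with BW (r = -0.25, permutation p = 0.279), and its part in the HAVCR2 result was otherwise not tested.

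**Figure D2:**
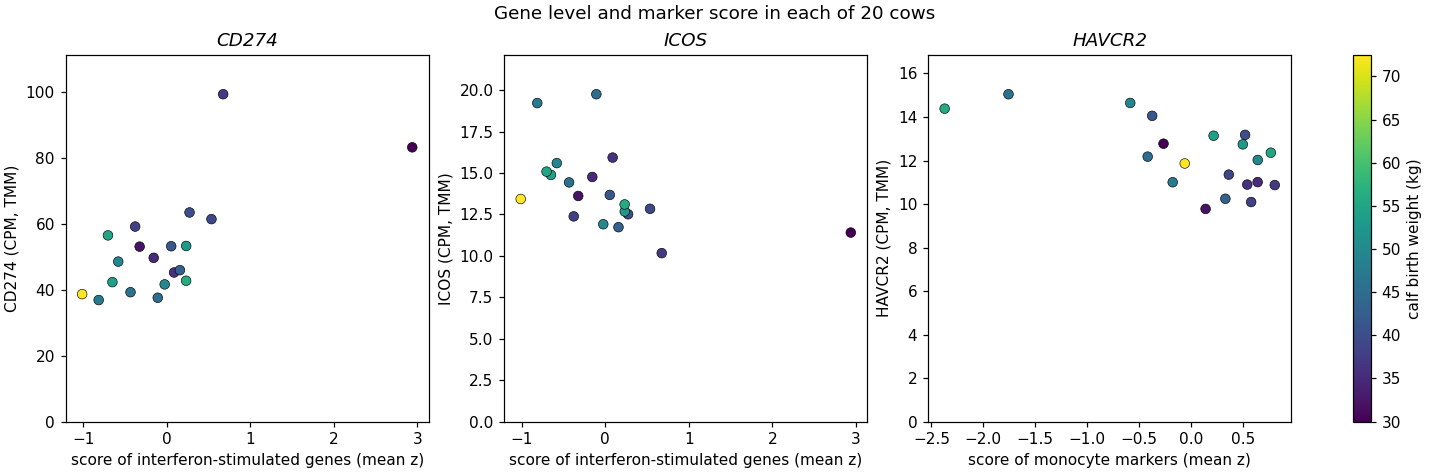
CD274 and ICOS (CPM after TMM) against the score of interferon-stimulated genes, and HAVCR2 against the score of monocyte markers, 1 point per cow, 20 cows, coloured by calf birth weight (kg). The recipient of the 30 kg calf stands apart with an interferon score of 2.94, and the recipients of the 56 and 46 kg calves with monocyte scores of -2.37 and -1.76.

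The other 7 members had slopes whose 95% intervals included 0. FOXP3, the transcription factor that defines regulatory T cells, had 8.06 CPM in the lowest cow, 12.3 at the median and 16.5 in the highest. The highest cow carried a 53 kg calf and the next a 36 kg calf, while the 7 lowest carried calves of 41.5, 50, 43, 72.5, 46, 54 and 56 kg. Over 20 cows FOXP3 had r = -0.33 with BW (permutation p = 0.150, FDR over all genes = 0.530) and rho = -0.40 (permutation p = 0.0866). Its slope was -0.0080 log2 per kg (SE 0.0076, unadjusted p = 0.301, edgeR FDR = 0.688), an interval of -15.2% to 5.49% per 10 kg. FOXP3 overlaps CCDC22 and PPP1R3F in the gene table, so its counts carry the same reservation on strand.

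CTLA4, the receptor through which regulatory T cells take CD80 and CD86 from antigen-presenting cells, had 3.12 CPM in the lowest cow, 4.82 at the median and 6.22 in the highest. IL2RA, the high-affinity chain of the interleukin 2 receptor, had 30.2, 44.1 and 55.4 CPM in the corresponding places. CTLA4 was lowest in the cow of a 50 kg calf and highest in that of a 47.4 kg calf. The 6 lowest IL2RA levels were with calves of 45, 72.5, 46, 56, 49.5 and 50 kg, and the highest with a 55 kg calf. The slope of CTLA4 was 0.0033 log2 per kg (SE 0.0085, unadjusted p = 0.700), and that of IL2RA -0.0067 (SE 0.0068, unadjusted p = 0.339). Per 10 kg the 95% intervals were -9.47% to 15.7% for CTLA4 and -13.4% to 5.34% for IL2RA.

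IL10, an inhibitory cytokine, was the least deeply counted member, with 11 to 58 reads per cow. It had 0.428 CPM in the lowest cow, 0.841 at the median and 1.70 in the highest, and the highest cow stood apart from the next, at 1.15 CPM. Its slope of -0.0060 log2 per kg (SE 0.017, unadjusted p = 0.719) had an interval of -24.4% to 21.7% per 10 kg, the widest of the 10.

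PDCD1, the gene of PD-1, had 3.88 CPM in the lowest cow, 5.94 at the median and 10.3 in the highest. LAG3, an inhibitory receptor for MHC class II, had 5.44, 7.03 and 11.4 CPM, and ICOS, a stimulatory receptor that effector and regulatory T cells carry, had 10.2, 13.5 and 19.8 CPM. The highest recipients of these 3 genes carried calves of 47.4, 46 and 45 kg in that order, near the middle of the BW range. Their slopes were -0.0078 for PDCD1 (SE 0.0099, unadjusted p = 0.440), -0.0022 for LAG3 (SE 0.0079, unadjusted p = 0.786) and 0.0078 log2 per kg for ICOS (SE 0.0069, unadjusted p = 0.274). The 95% intervals per 10 kg were -17.9% to 9.28%, -12.1% to 10.4% and -4.49% to 16.6%. Over 20 cows, the Pearson r of these 7 members with BW lay between -0.40 for IL2RA (permutation p = 0.0812) and 0.18 for ICOS (permutation p = 0.438).

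**Figure D3:**
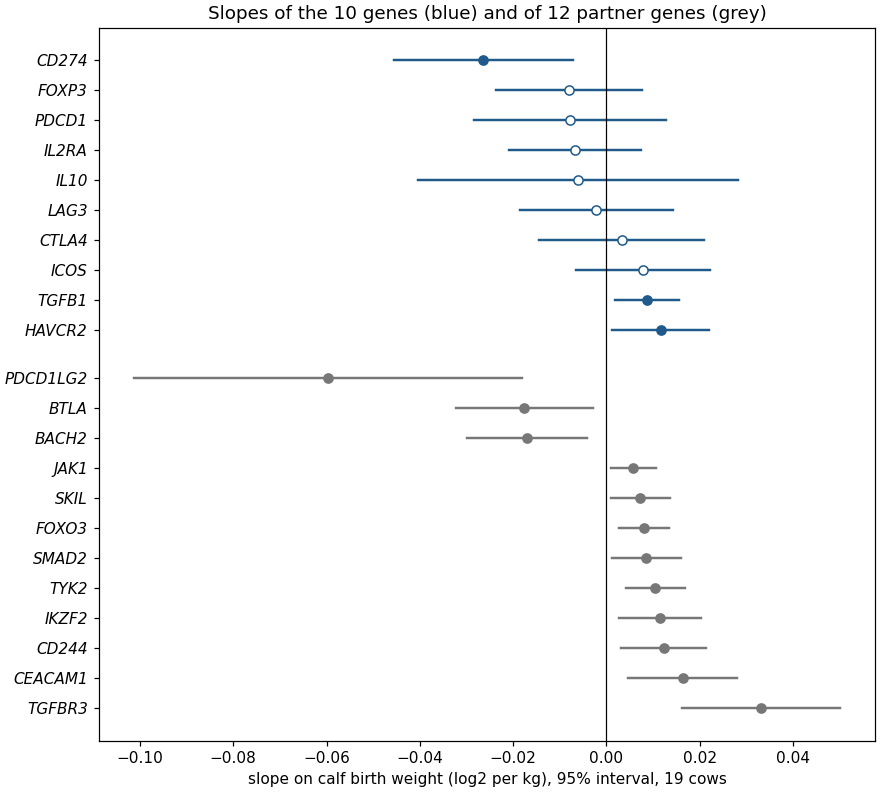
Slope on calf birth weight (log2 per kg, 19 cows) with its 95% interval for the 10 genes (blue) and 12 partner genes named for an unadjusted p below 0.05 (grey). Filled points have an unadjusted p below 0.05, open points do not, and CD274, TGFB1 and HAVCR2 are the 3 filled points among the 10 genes.

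Genes that act with the members were counted in 3 lists. Among partners of regulatory T cells, 27 of 28 listed genes were tested, 14 with a positive and 13 with a negative slope. An unadjusted p below 0.05 was found for 2 positive slopes, of FOXO3 and IKZF2, and 1 negative slope, of BACH2 (11.1% of the list, near the 13.6% of all genes), and 0 had an FDR below 0.05. FOXO3, a transcription factor of the forkhead family, had a slope of 0.0081 log2 per kg (SE 0.0026, unadjusted p = 0.00510, edgeR FDR = 0.192). IKZF2 encodes Helios, a transcription factor of regulatory T cells, and had 31.4 to 50.0 CPM over the cows and a slope of 0.011 (SE 0.0042, unadjusted p = 0.0136). BACH2, a repressor that holds back effector differentiation, had a slope of -0.017 (SE 0.0062, unadjusted p = 0.0124), and -0.0074 with all 20 cows (unadjusted p = 0.144). FOXP3 and IKZF2 had an r of -0.09 over the cows (rho = -0.04, permutation p = 0.709).

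Of the 28 checkpoint partners, 25 were tested, with 15 positive and 10 negative slopes. An unadjusted p below 0.05 was found for 2 positive slopes (CEACAM1 and CD244) and 2 negative ones (PDCD1LG2 and BTLA), 16% of the list and near the 13.6% of all genes. CEACAM1, an adhesion receptor described as a ligand of TIM-3, had 242 CPM in the lowest cow and 458 in the highest, that of the 56 kg calf. Its slope was 0.016 log2 per kg (SE 0.0056, unadjusted p = 0.00844), and 0.010 without that cow (unadjusted p = 0.0646). CEACAM1 and HAVCR2 correlated at r = 0.51 (permutation p = 0.0233, FDR over all genes = 0.226, rho = 0.48). CD244, a receptor of natural killer and CD8 T cells, had a slope of 0.012 (SE 0.0044, unadjusted p = 0.0108), and 0.0092 without the recipient of the 56 kg calf (unadjusted p = 0.0583). BTLA, an inhibitory receptor of B and T cells, had a slope of -0.018 (SE 0.0070, unadjusted p = 0.0207), with a p of 0.0659 without the recipient of the 55 kg calf, and -0.0029 with all 20 cows (unadjusted p = 0.622).

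In the interleukin 2, interleukin 10 and TGF-beta pathways, all 28 listed genes were tested and 18 had a positive and 10 a negative slope. Over all genes 7543 were positive and 8663 negative. The median slope of the list was 0.0036 log2 per kg, beside -0.00072 over all genes. An unadjusted p below 0.05 was found for 5 positive slopes and 0 negative ones, 17.9% of the list beside 13.6% of all genes. For positive slopes alone the share over all genes was 6.66%, and for negative slopes 6.99%. The list was not tested as a set. TGFBR3, the co-receptor betaglycan that presents TGF-beta to its receptors, had the smallest p of the 3 lists. Its level was 13.6 CPM in the lowest cow, 20.2 at the median and 43.4 in the highest, that of the 56 kg calf, followed by 32.7 CPM in that of the 46 kg calf. The slope of TGFBR3 was 0.033 log2 per kg (SE 0.0081, unadjusted p = 0.00056, edgeR FDR = 0.122), and 0.023 without the recipient of the 56 kg calf (unadjusted p = 0.00551). With DESeq2, the test that the study used, its FDR was 0.0208, the only one below 0.05 among the 10 members and 12 named partner genes. TYK2 and JAK1, kinases of cytokine receptors, had slopes of 0.011 and 0.0058, and SMAD2 and SKIL, an effector and a repressor of TGF-beta signalling, 0.0086 and 0.0073. Without the recipient of the 56 kg calf the p of JAK1 was 0.0828 and that of SMAD2 0.143. The p of SKIL was 0.103 without the recipient of the 30 kg calf, and also exceeded 0.05 without that of the 35 or 53 kg calf, as did JAK1 without that of the 30 kg calf. With all 20 cows the JAK1 slope was 0.0036 (unadjusted p = 0.0852).

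The recipients of the 56 and 46 kg calves, with the highest levels of TGFBR3, CEACAM1 and CD244, also had the lowest monocyte scores and the highest eosinophil scores (2.18 and 1.67). The eosinophil score rests on IL5RA alone of 6 listed genes, with 20.2 to 199.8 CPM over the cows and a slope of 0.053 log2 per kg (unadjusted p = 0.0170), while CCR3 and ALOX15 were at 0 in every cow. With the monocyte score as a covariate the slopes were 0.023 for TGFBR3 (unadjusted p = 0.00059), 0.0099 for CEACAM1 (p = 0.0326), 0.0085 for CD244 (p = 0.0452), 0.0044 for JAK1 (p = 0.0657) and 0.0054 for SMAD2 (p = 0.109). The part of eosinophil content in these slopes was not tested.

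Co-variation of the members was measured on log2(CPM + 0.5) over the 20 cows. Of the 45 pairs of members, 4 had an unadjusted permutation p below 0.05. None of the 4 reached an FDR of 0.05 when adjusted over all genes tested with the first gene of the pair. Of all tested genes, 0.790% lay as far from 0 with CD274 as ICOS did, and 3.34% with PDCD1 as LAG3 did. The shares were 5.07% for FOXP3 with CTLA4 and 9.47% for IL2RA with TGFB1. The share of all genes below an unadjusted p of 0.05 was not computed, so the count of pairs is a description. CD274 and ICOS had the correlation farthest from 0, at r = -0.68 (permutation p = 0.0012, FDR over all genes = 0.157) and rho = -0.58 (p = 0.00828). The recipient of the 37 kg calf had the highest CD274 and the lowest ICOS level, and r was -0.50 (permutation p = 0.0313) without the 2 cows highest in CD274. ICOS was lower where interferon-stimulated genes were higher (r = -0.51, permutation p = 0.0275, rho = -0.63, p = 0.00314), and r was -0.63 (permutation p = 0.00450) without the 2 cows farthest from the median score.

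FOXP3 and CTLA4 correlated at r = 0.48 (permutation p = 0.0330, rho = 0.35, p = 0.125), and the p exceeded 0.05 when the recipient of the 50, 43, 53 or 36 kg calf was left out, with r down to 0.35. FOXP3 and IL2RA, both held by regulatory T cells, had r = 0.33 (permutation p = 0.148) and rho = 0.41 (p = 0.0730). PDCD1 and LAG3 correlated at r = 0.53 (permutation p = 0.0180, rho = 0.41, p = 0.0750), at r = 0.45 without the recipient of the 46 kg calf, and at r = 0.27 once the T cell score was taken out of both. IL2RA and TGFB1 correlated negatively, at r = -0.47 (permutation p = 0.0354, rho = -0.45, p = 0.0489). Its p exceeded 0.05 without the recipient of the 35, 36, 56 or 46 kg calf, with r between -0.44 and -0.41.

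**Figure D4:**
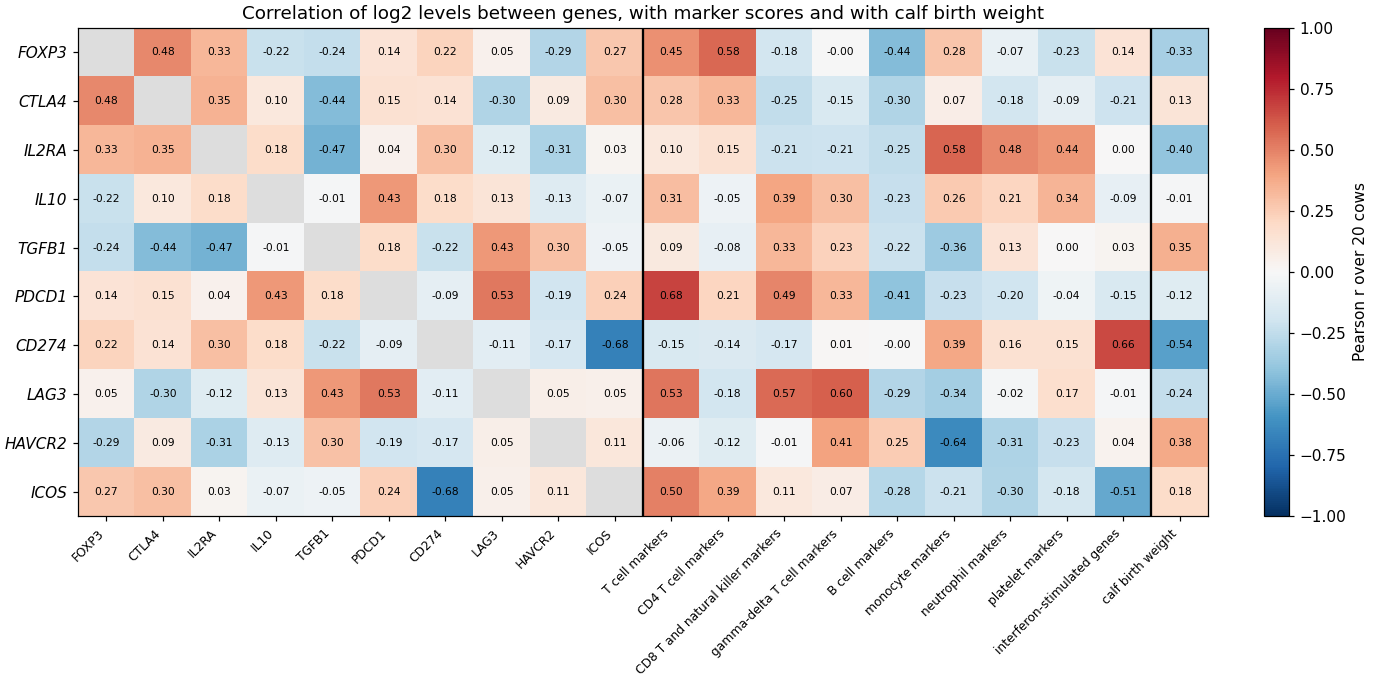
Pearson r of log2(CPM + 0.5) over 20 cows between the 10 genes (left block), with 9 marker scores (middle block) and with calf birth weight (right column), from -1 (blue) to 1 (red). The gene pair farthest from 0 is CD274 and ICOS at -0.68, and the gene and score farthest from 0 are PDCD1 and the T cell markers at 0.68.

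T cell markers moved with several members. The T cell score, from 12 of 12 listed genes, correlated with PDCD1 (r = 0.68, permutation p = 0.00131), LAG3 (r = 0.53, p = 0.0157), ICOS (r = 0.50, p = 0.0251) and FOXP3 (r = 0.45, p = 0.0450). The rho was 0.55, 0.51, 0.42 and 0.49 in that order, and r without the 2 cows farthest from the median score was 0.36, 0.38, 0.37 and 0.51. FOXP3 had a higher r with the 2 CD4 T cell markers (r = 0.58, permutation p = 0.00804), and LAG3 with the CD8 T and natural killer markers (r = 0.57, p = 0.00984) and the gamma-delta T cell markers (r = 0.60, p = 0.00538). Those 3 values were 0.50, 0.43 and 0.51 without the 2 cows farthest from the median of each score. The 2 CD4 T cell markers differed in their relation to FOXP3. Its r was 0.77 with CD4 (permutation p = 7e-05, FDR over all genes = 0.324) and 0.03 with CD40LG (permutation p = 0.890). IL2RA had r = 0.58 with the monocyte score (permutation p = 0.00532) and r = 0.48 with the neutrophil score (p = 0.0338), beside r = 0.10 with the T cell score. Without the 2 cows with the lowest monocyte scores, the r of IL2RA with the monocyte score was 0.45 (permutation p = 0.0622). None of these differences between scores was tested.

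Pairs of a member and a related gene were taken for 20 combinations, chosen after the members' values were seen. The share of all genes below an unadjusted p of 0.05 with each member was not computed, so the count of such pairs is a description. Of the 20 pairs, 6 had an unadjusted permutation p below 0.05. Apart from both PD-1 ligands and HAVCR2 with CEACAM1, these were PDCD1 with TIGIT, another inhibitory receptor of T cells (r = 0.79, permutation p = 5e-05, FDR over all genes = 0.304), ICOS with CD28 (r = 0.61, p = 0.00353), CTLA4 with CD28 (r = 0.51, p = 0.0221) and TGFB1 with TGFBR3 (r = 0.70, p = 0.00069). TGFB1 and TGFBR3 were the only pair of the 20 with an FDR below 0.05 over all genes (0.0243). TGFB1 passed that FDR with 4.84% of all other tested genes and PDCD1 with 0%, so a larger p was enough for a pair with TGFB1. Without the 2 cows farthest from the median TGFB1 level, the recipients of the 41.5 and 50 kg calves, r was 0.81. The recipients of the 56 and 46 kg calves, highest in TGFBR3, stayed in. They had the next highest TGFB1 levels, at 325 and 320 CPM. Without the 2 cows farthest from the median of the member, r was 0.71 for PDCD1 with TIGIT, 0.52 for ICOS with CD28 and 0.28 for CTLA4 with CD28. CD28 is itself on the T cell marker list. TIGIT had the highest r with PDCD1 of all genes tested, so that pair is a description only. For TGFB1 and its signalling receptors, r was -0.17 with TGFBR1 (permutation p = 0.477) and -0.35 with TGFBR2 (p = 0.127). For CTLA4 and its ligands, r was -0.17 with CD80 (permutation p = 0.483) and -0.20 with CD86 (p = 0.401).

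Across all 16205 other tested genes, TGFB1 had 785 correlations with an FDR below 0.05 (4.84%), of which 593 were positive and 192 negative. Of 76 partner genes it had 5, namely PVR, TYK2, TGFBR3 and SMAD7 with a positive and BACH2 with a negative r, named here after their values were seen. CD274 and HAVCR2 had 7 each (0.0432%), all positive for CD274, and 3 positive and 4 negative for HAVCR2. The other 7 members had 0 (0%). Counts as low as 7 rest on p-values at or next to 1e-05, the smallest that 100000 resamples can give. Counts of 0 are limited in the same way. For LAG3, TRIB3 and CHST12 were both at a permutation p of 1e-05 and had an FDR of 0.081. A count of 0 therefore does not mean that no gene moved with the member.

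The genes whose pattern over the 20 cows was most like that of TGFB1 were S100A11 (r = 0.92), SSH3 (r = 0.90) and ULK1 (r = 0.89). Nearest to CD274 were TMEM50A (r = 0.88), RBKS (r = 0.82) and ISG20 (r = 0.82), the last known as an interferon-induced exonuclease. For PDCD1 they were TIGIT (r = 0.79), LOC781494 (r = 0.77) and the T cell kinase LCK (r = 0.77), and for LAG3 TRIB3 (r = 0.89), CHST12 (r = 0.86) and NOL12 (r = 0.80). HAVCR2 was nearest to DYRK1A (r = 0.83), HYCC1 (r = 0.80) and TENT2 (r = 0.80). The other nearest genes were SYT15B, JAKMIP3 and GTF3C3 for FOXP3, TMEM273, MOSPD1 and SKIC8 for CTLA4, LOC107131330, LOC541276 and JAM3 for IL2RA, LOC112447531, NDUFA4 and LOC104968753 for IL10, and TMEM248, AGBL2 and ADK for ICOS, with r between 0.73 and 0.81. These genes were picked as the 3 highest of all genes tested, so their r is a description.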

How the data were processed

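Paired-end RNA sequencing of maternal blood was done by the authors. The deposited values are raw counts of reads per gene by Entrez identifier, 1 file per cow. Per the labels and the study's methods the authors checked reads with FastQC 0.11.9, trimmed them with Trimmomatic, aligned them with STAR 2.7.0b and counted them with featureCounts (Subread 2.0.3). The strand setting is not given in the sources used here, and the labels and the methods name different library kits. Symbols came from a RefSeq cattle gene table, which held all 37063 identifiers.

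Genes reaching 10 counts in 5 or more of 19 cows (16206) were tested with edgeR 4.0.16 (R 4.3.3; TMM, robust quasi-likelihood, slope per kg), leaving out the recipient of the 72.5 kg calf as the study did. Benjamini-Hochberg adjustment ran over all genes tested. Correlations used log2(CPM + 0.5) in 20 cows and two-sided permutation tests with 100000 resamples (numpy 2.4.6). DESeq2 1.42.0 and limma 3.58.1 were alternatives. The procedures were tested on simulated data. Each cow gave 1 library, counted as 1 replicate. Named genes are the members, partner genes with an unadjusted p below 0.05 (at most 6 per list) and the 3 nearest genes of each member. Members and lists were chosen with earlier results of these data known.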

Additional observations from a re-analysis of the deposited data

How the results depend on the processing

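The number of genes with an FDR below 0.05 was 0 in the reported edgeR fit (2212 at an unadjusted p below 0.05), 4 with all 20 cows, 142 with every gene that had any count, 189 with DESeq2 and 0 to 30 with 1 cow left out, the 30 being without the recipient of the 32 kg calf. With any count, 3340 genes had an unadjusted p below 0.05. Of the members, 1 had an unadjusted p below 0.05 with all 20 cows, CD274. Among all genes tested in that fit, 2140 had an unadjusted p below 0.05. The count of members is therefore a description and not a difference from the background. Pairs of members below that p numbered 3 to 9 with 1 cow left out, with 9 without the recipient of the 41.5 kg calf and 7 without that of the 47.4 kg calf. The directions that reversed under these alternatives were the following. With the interferon score as a covariate the slopes of CTLA4 and ICOS were -0.00027 and -0.0016 log2 per kg, and with all 20 cows that of IL10 was 2.97e-05. After the T cell score, the r of IL10 with BW was 0.018 and that of PDCD1 with CD274 was 0.021. With 1 cow left out, the slope of IL10 ranged from -0.012 to 0.0029 and that of LAG3 from -0.0046 to 0.0030, the r of IL10 with BW from -0.12 to 0.10 and that of PDCD1 with CD274 from -0.18 to 0.10. The cause of these changes was not tested. No paired analysis was possible because all cows form one group. IL10 was the member with the fewest reads, 11 to 58 per cow.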
